A study of Mus musculus with 8 samples.

Results

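Mouse embryonic stem cells with wild-type p53 (p53+/+) were compared by RNA sequencing with and without Adriamycin, using their input polyadenylated RNA. The comparison rests on 2 of the 8 libraries in the study, one untreated and one from cells held for 8 h in 0.5 uM Adriamycin. The cells were a C57BL/6X129Sv mix, used below 20 passages and grown in serum medium with LIF, which all groups shared. The other 6 libraries were the same pair of conditions in p53-/- input RNA, and the RNA that came down with hnRNP L, a protein that binds RNA, in an immunoprecipitation from p53+/+ and p53-/- cells. They serve here as a comparison, and they enter the scaling and the choice of measured genes. Each group is 1 library, and the labels name neither the clones nor separate cultures, so no spread between cultures can be given and no difference below was tested. Members are all genes of the deposited transcript tables, 23560 genes in all. FPKM are sequenced fragments of a gene scaled for its transcript length and the size of the library. The 11847 genes with a mean of at least 1 scaled FPKM over all 8 libraries are called measured genes. A measured gene can therefore be low in both p53+/+ inputs.

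The transcription factor p53, encoded by Trp53, is held low in unstressed cells by the ubiquitin ligase Mdm2 and accumulates when DNA is broken. It then binds a sequence of paired half-sites near its target genes, among them inhibitors of the cell cycle, inducers of apoptosis, and its own negative regulators. Adriamycin (doxorubicin) intercalates into DNA and traps topoisomerase II on it, which leaves double-strand breaks. Embryonic stem cells cycle fast with little G1 arrest, depend on LIF acting through STAT3 in this medium, and differentiate or die when p53 is active.

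Levels below are deposited FPKM, untreated first. Changes are differences in log2(scaled FPKM + 1), Adriamycin minus untreated, after dividing the untreated library by 1.32 and the Adriamycin library by 1.45. They understate the change of genes near 1 FPKM. A gene is counted as higher or lower when its change reached 1. Coverage summed to 6.25 Gb on transcripts in the untreated library and 5.67 Gb in the Adriamycin library. Short RNAs held 3.41% and 1.13% of the summed FPKM. Trp53 itself stood at 236 and 173 FPKM in the p53+/+ inputs and at 140 and 121 FPKM in the p53-/- inputs, so its RNA was present in p53-/- cells, below both p53+/+ values. Of 8 stem cell markers, 5 were lower by 1 and all 8 were below 0, with a median of -1.11. Their sum, most of it Dppa5a, was 9409 FPKM untreated and 8123 FPKM with Adriamycin. Markers of other cells were far lower. Fibroblast markers summed to 12.4 and 17.3 FPKM, with Col3a1 at 0 in both libraries and 2 of 8 higher by 1, Fbln2 and Col1a1. Trophoblast markers summed to 18.3 and 38.2 FPKM, and 1 of 5 was higher, Krt7 at 0.669 and 12.5 FPKM. Early mesoderm markers summed to 5.50 and 10.1 FPKM, and 1 of 4 was higher, Mesp1 at 0.214 and 4.96 FPKM. Primitive endoderm markers summed to 116 and 106 FPKM, neural markers to 49.6 and 24.1 with Tubb3 lower by 1, germ cell markers to 105 and 74.9 with Mael lower, blood and endothelium markers to 18.6 and 16.7, and markers of cells resembling the 2-cell embryo to 407 and 523. Some of these sums differed between genotypes without Adriamycin. In the p53-/- inputs fibroblast markers summed to 186 and 202 FPKM, above the p53+/+ sums. Primitive endoderm markers, at 42.7 and 46.4 FPKM, and 2-cell markers, at 162 and 161 FPKM, were below them. The part of these markers in the results was not tested. In RNA from a whole culture, fewer cells of a kind and less RNA per cell cannot be told apart.

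With Adriamycin 1005 measured genes were higher by 1 or more, which is 8.48% of those measured, and 469 were lower, which is 3.96%. With the deposited FPKM left unscaled the split was 1286 higher and 368 lower. In p53-/- cells 17 genes were higher, 0.143%, and 20 lower, 0.169%. In the p53+/+ hnRNP L immunoprecipitates, called antibody RNA or the antibody pair below, 1155 genes were higher, 9.75%, and 641 lower, 5.41%. Leaving out short RNAs and genes without a symbol, 982 genes were higher in the p53+/+ inputs. Together they went from 1.17% to 4.44% of the summed FPKM in p53+/+ cells and from 1.07% to 1.21% in p53-/- cells. The 451 lower genes went the other way, from 5.30% to 2.38% in p53+/+ cells and from 5.24% to 4.65% in p53-/- cells. Of the 982 higher genes, 963 moved by less than 0.5 in p53-/- cells and 0 reached 1. That 0 is near the 0.143% of all measured genes that were higher by 1 in p53-/- cells. The share of all measured genes that moved by less than 0.5 there is not given, so the 963 have no base. Of the 451 lower genes, 396 moved by less than 0.5 in p53-/- cells, 54 were lower there by 0.5 or more, and 6 by 1 or more. The 396 and the 54 have no base either, and the 6 are to be read beside the 0.169% of all measured genes lower by 1 there. These genes were chosen on their p53+/+ change, so their medians were fixed in part by that choice. The change also differed by abundance. The 11638 measured genes left by the same exclusions were split into 5 equal bins. The median was 0.06 in the least abundant bin and -0.28 in the most abundant, against -0.05 over all measured genes. Of all 11847 measured genes, 6398 were below 0. The counts of list members below are to be read beside these shares and, for abundant lists, beside the median of the most abundant bin.

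**Figure D1:**
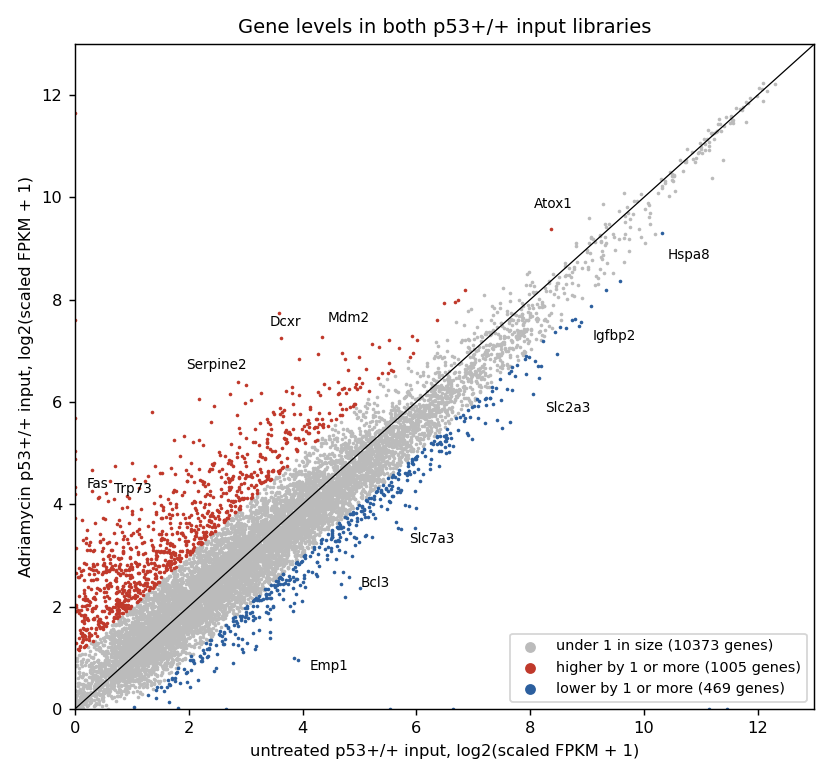
Each point is a measured gene, with its log2(scaled FPKM + 1) in the untreated p53+/+ input library on the x axis and in the Adriamycin library on the y axis. The 1005 genes higher by 1 or more are red and the 469 lower are blue; Dcxr went from 15.0 to 218 FPKM and Slc2a3 from 352 to 102 FPKM.

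The negative regulators of p53 and its relatives moved as a mixed group. Of 12 measured, 5 were higher and 0 lower, with a median of 0.72, between 0.46 and 0.97 over the alternatives. Mdm2, which marks p53 for degradation, went from 25.4 to 221 FPKM. Trp53inp1, which promotes p53 phosphorylation, went from 15.2 to 79.2 FPKM, a change of 2.16. Ccng1, cyclin G1, went from 40.7 to 169 FPKM, and Ppm1d, a phosphatase that removes damage-induced phosphates from p53, from 9.10 to 29.4 FPKM. Also higher was Trp73, the p53 relative p73, described by its records below. Other members did not reach 1: the ubiquitin ligase Cop1 was at 12.5 and 8.04 FPKM, a change of -0.67, and Mdm4, the partner of Mdm2, changed by 0.46.

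Genes of cell cycle arrest were mostly, but not all, higher. Of 22 measured, 12 were higher and 2 lower, with a median of 1.04, between 0.67 and 1.18 over the alternatives. Plk2, a kinase induced by damage, went from 7.43 to 101 FPKM, a change of 3.42. Btg2, an antiproliferative cofactor of mRNA decay, went from 11.4 to 103 FPKM, a change of 2.91. Cdkn2b, the p15 inhibitor of Cdk4 and Cdk6, went from 1.48 to 14.6 FPKM, while in p53-/- cells it stood at 8.09 and 9.68 FPKM. The level in untreated p53-/- cells was therefore above that of untreated p53+/+ cells. Among the pocket proteins that hold E2F factors, Rb1 went from 2.46 to 17.7 FPKM and Rbl2 from 1.05 to 7.70 FPKM, while Rbl1 changed by -0.44. Rb1 overlaps Lpar6, which lies within it, and whether the counting used strand is not given in the sources used here, so its value is uncertain. The same holds for Rbl2, Gadd45a, Bak1, Cxcl10 and Cdc20, which overlap Aktip, E230016M11Rik, Ggnbp1, Art3 and Elovl1. Rprm, the G2 arrest mediator reprimo, went from 1.29 to 11.1 FPKM. The lower members were Cdkn1b, the p27 inhibitor, at 12.6 and 5.402 FPKM, and Gadd45b at 16.3 and 6.42 FPKM. Gadd45a, often used as a p53 readout, was at 52.2 and 57.0 FPKM, a change of -0.00.

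Part of the intrinsic apoptosis list was higher. Of 28 measured, 7 were higher and 0 lower, with a median of 0.29. Perp, a membrane protein of p53-dependent death, went from 9.12 to 89.3 FPKM, a change of 2.99. Apaf1, the scaffold of the apoptosome, went from 2.56 to 20.7 FPKM, and Pidd1, the core of the PIDDosome that activates caspase 2, from 4.99 to 29.1 FPKM. Of the BH3-only initiators, Pmaip1 (Noxa) went from 12.5 to 54.9 FPKM and Bbc3 (Puma) from 11.3 to 44.1 FPKM. Of the pore formers, Bax was at 335 and 452 FPKM, a change of 0.30, and Bak1 at 39.2 and 26.1 FPKM, a change of -0.68. The antiapoptotic Mcl1 was at 151 and 261 FPKM, a change of 0.66. Among 15 death receptor genes, 2 were higher and 1 lower, and their median of 0.10 became -0.09 with quantile scaling. Beside Fas, the receptor Eda2r went from 5.42 to 15.7 FPKM. The neurotrophin receptor Ngfr was lower, at 8.68 and 3.38 FPKM.

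Metabolic and autophagy genes linked to p53 were higher in part. Of 25 measured, 8 were higher and 0 lower, with a median of 0.59, between 0.38 and 0.85 over the alternatives. Cpt1c, a carnitine palmitoyltransferase, went from 11.2 to 68.3 FPKM, a change of 2.35. Aldh4a1, which makes glutamate from proline, went from 14.8 to 77.6 FPKM, a change of 2.16. Ddit4 (Redd1), an inhibitor of mTORC1, went from 48.1 to 202 FPKM in p53+/+ cells and from 74.9 to 55.2 FPKM in p53-/- cells. Its changes were 1.92 and -0.50, in opposite directions, and their difference was not tested. Tigar, a fructose bisphosphatase known as a p53 target in human cells, was at 16.1 and 12.3 FPKM, a change of -0.47. Of 44 canonical p53 targets measured, 32 were higher and 0 lower, and 2 were below 0, Tigar and Tgfa at -0.08.

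Lists of the damage machinery had medians near 0. Of 28 damage signalling genes, 0 were higher and 0 lower by 1, and their median was -0.14 in p53+/+ cells, between -0.21 and -0.02 over the alternatives. Top2a, the topoisomerase that Adriamycin traps, was at 82.7 and 50.9 FPKM, a change of -0.81. H2ax, whose phosphorylated histone marks breaks, was at 402 and 282 FPKM, with a change of -0.64 in p53+/+ cells and -0.89 in p53-/- cells. Of 50 repair genes, 4 were higher and 1 lower, shares near the 8.48% and 3.96% of all measured genes. Their median was 0.00, between -0.10 and 0.11 over the alternatives. Among the higher repair genes, the nucleotide excision nuclease Ercc5 went from 5.74 to 38.1 FPKM, the translesion polymerase Polk from 1.84 to 9.51 FPKM and the single-strand break scaffold Xrcc1 from 37.6 to 86.4 FPKM. The excision repair genes Xpc and Ddb2, p53 targets in human cells, changed by 0.25 and 0.31. The 15 NF-kappaB genes included 0 higher and 0 lower.

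**Figure D2:**
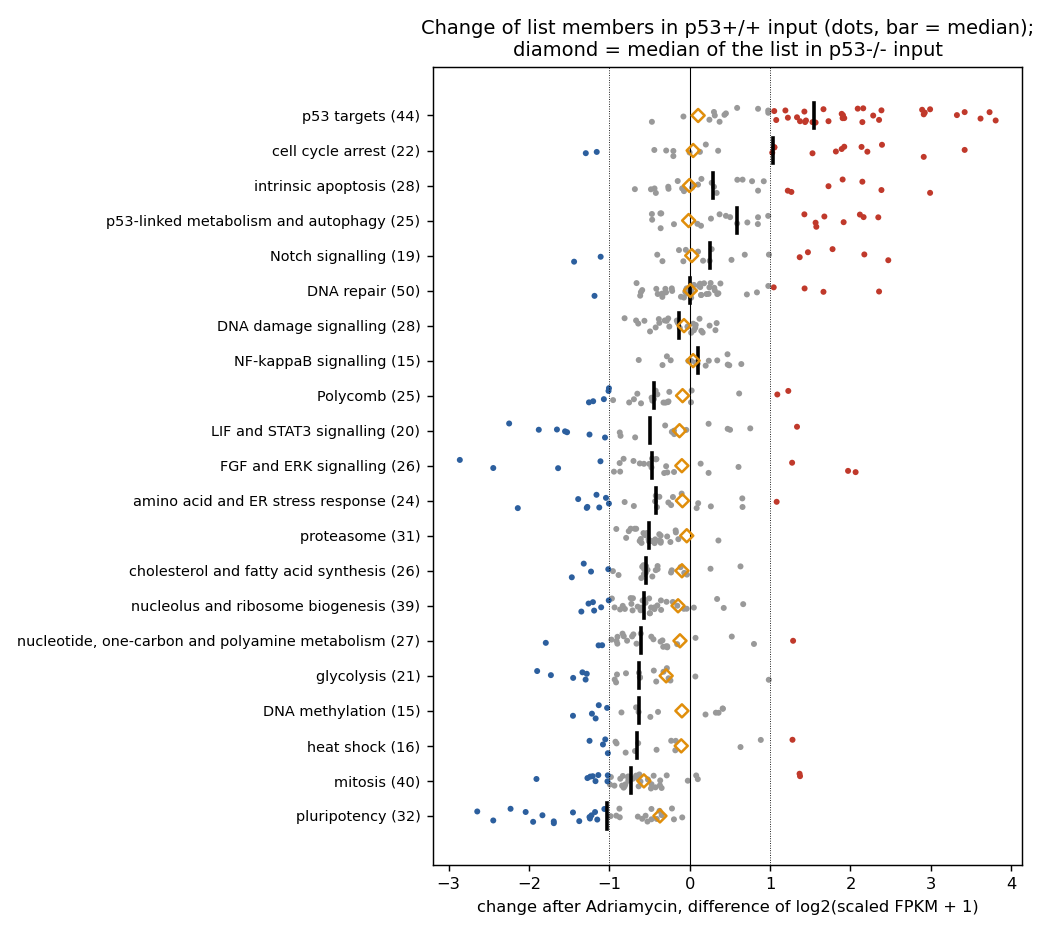
Each row is a gene list and each dot a measured member, placed by its change in log2(scaled FPKM + 1) in p53+/+ input RNA; red is 1 or more, blue -1 or less and grey between. The bar is the list's p53+/+ median and the diamond its p53-/- median, such as 1.55 and 0.10 for the p53 targets and -0.74 and -0.57 for the mitosis genes.

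Promoter windows of RefSeq (GRCm38.p6), from 250 bases before to 50 bases after each transcript start, were searched on both strands for the p53 response element. The search took 20 bases made of 2 half-sites with a gap of at most 1 base and allowed 2 mismatches. It was found in 0.682% of all 32851 windows, in 0.813% of windows of measured genes, in 2.17% of windows of higher genes (23 of 1062) and in 0.393% of windows of lower genes (2 of 509). The 6 sequences are shown because each belongs to a gene whose RNA was higher, with the element in capitals and 20 bases on each side. They are printed on the strand of the gene. Cdkn1a, the p21 inhibitor of cyclin-dependent kinases, at chr17:29090908-29090967, plus strand, had 1 mismatch. Judged by the positions of Tfeb, on the same chromosome, in both builds, the window lies at the upstream start of Cdkn1a. The record from that start, NM_001111099, held only 3.95% and 5.05% of the FPKM of the gene in p53+/+ inputs. NM_007669, from the downstream start, held 96.0% and 94.9%.
Cdkn1a: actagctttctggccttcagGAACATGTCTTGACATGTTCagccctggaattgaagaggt
Ccng1, at chr11:40755442-40755501, minus strand, had 1 mismatch.
Ccng1: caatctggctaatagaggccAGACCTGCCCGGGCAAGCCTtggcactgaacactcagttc
Trp73, at chr4:154097200-154097259, minus strand, had 2 mismatches and lies in the window of the downstream of its 2 annotated starts.
Trp73: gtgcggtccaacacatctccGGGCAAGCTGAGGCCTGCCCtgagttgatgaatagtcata
Sptbn4, a beta spectrin, at chr7:27396214-27396273, minus strand, had 0 mismatches.
Sptbn4: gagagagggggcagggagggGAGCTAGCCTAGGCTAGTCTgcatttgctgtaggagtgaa
Zfp365, a zinc finger protein tied to fragile-site stability in human cells, at chr10:67912686-67912745, minus strand, had 2 mismatches.
Zfp365: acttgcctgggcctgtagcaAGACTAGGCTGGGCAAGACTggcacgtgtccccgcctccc
Ckap2, a mitotic spindle protein, at chr8:22185983-22186042, minus strand, had 2 mismatches.
Ckap2: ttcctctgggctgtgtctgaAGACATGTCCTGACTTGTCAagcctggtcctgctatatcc
A match describes the letters and shows no binding, and a window without one says nothing about p53 there. The FPKM tables use the build mm9, so these windows and the transcript positions given elsewhere are on different coordinates.

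The higher genes were also ranked by FPKM gained rather than by ratio. Atox1, a copper chaperone, went from 436 to 966 FPKM, with changes of 1.02 in p53+/+ and 0.07 in p53-/- cells. Pmm1, a phosphomannomutase, went from 151 to 420 FPKM and Cox6b2, a cytochrome oxidase subunit, from 117 to 351 FPKM. The splicing factor Rbm17 went from 139 to 367 FPKM and Siva1, an apoptosis regulator and p53 target, from 135 to 356 FPKM. The uncharacterized 1700007K13Rik went from 14.6 to 305 FPKM, a change of 4.14, and holds a p53 element in its promoter window. Dcxr, a dicarbonyl and xylulose reductase (mm9 chr11:120586687-120588595), went from 15.0 to 218 FPKM. The authors' bounds on its estimates were 13.5 to 16.5 and 212 to 224 FPKM, which do not overlap. Such bounds cover the estimate within a library, not the spread between cultures. Gpx3, a secreted glutathione peroxidase, went from 24.3 to 177 FPKM, and it was the only one of 26 NRF2 and antioxidant genes to be higher by 1. Ctsd, cathepsin D, went from 107 to 278 FPKM, also the only higher gene of 37 lysosome and autophagy genes. Bloc1s2, which acts in lysosome positioning, went from 59.5 to 214 FPKM.

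Some genes started near 0: on scaled values 128 genes went from under 1 FPKM to at least 5 FPKM, and 3 went the reverse way, Emp1, Fgf17 and Tgfbi. By change, the protease inhibitor Serpine2 (mm9 chr1:79790896-79855240) went from 8.28 to 120 FPKM and from 23.5 to 29.2 FPKM in p53-/- cells. Serpine2 was named by a rule that required a p53-/- change under 0.5, so its small change there was limited by that choice. Rgs14, a regulator of G protein signalling, went from 0.600 to 25.6 FPKM. Cpz, a carboxypeptidase with a Wnt-binding domain, went from 0.446 to 24.2 FPKM. Shisa4 went from 3.08 to 54.1 FPKM and the cilium gene Rsph6a from 0.117 to 17.3 FPKM.

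Notch signalling genes moved in part, with a receptor, ligands and a feedback gene higher. Of 19 measured, 5 were higher and 2 lower, with a median of 0.25 in p53+/+ cells, between 0.08 and 0.52 over the alternatives, and 0.03 in p53-/- cells. The receptor Notch3 (mm9 chr17:32257838-32303797) went from 3.22 to 26.1 FPKM, a change of 2.47 against -0.02 in p53-/- cells and 2.53 in the hnRNP L antibody pair. The ligand Jag2 went from 3.19 to 20.8 FPKM and the ligand Dll1 from 1.23 to 5.77 FPKM. Nrarp, a feedback inhibitor that Notch induces, went from 1.22 to 8.08 FPKM. Another Notch target, Hes1, was at 22.999 and 23.7 FPKM, and the DNA-binding partner Rbpj was lower, at 53.6 and 26.4 FPKM. The receptor Notch4 was also lower, at 3.83 and 0.632 FPKM.

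Epithelial junction and keratin genes went both ways. Of 31 measured, 9 were higher and 4 lower, and the median of -0.01 changed sign in 4 alternatives. St14, the membrane protease matriptase, went from 12.99 to 67.2 FPKM and the simple keratin Krt7 from 0.669 to 12.5 FPKM. The adhesion molecule Epcam was lower, at 74.3 and 32.9 FPKM, and E-cadherin, Cdh1, was at 52.2 and 31.1 FPKM, a change of -0.85. Of 18 antigen presentation genes, 3 were higher and 1 lower, with a median of -0.08. The peptide transporter Tap1 went from 1.33 to 39.1 FPKM, a change of 3.81. The immunoproteasome subunit Psmb9 went from 4.50 to 19.03 FPKM, and the class I gene H2-D1 changed by -0.62. Of 12 interferon genes measured, 3 were higher and 1 lower: the chemokine Cxcl10 went from 0.508 to 7.53 FPKM, while the RNA sensor Ddx58 (RIG-I) was at 5.395 and 1.52 FPKM. Of 28 Nodal and BMP signalling genes measured, 3 were higher and 3 lower, against 8.48% and 3.96% of all measured genes. Their median of -0.04 became 0.06 on deposited values, and the lowest was Bmp4, at 32.6 and 6.42 FPKM. In the TGF-beta family, Nodal went from 39.1 to 117 FPKM and its inhibitor Lefty1 from 35.5 to 141 FPKM. Their coreceptor Tdgf1 (Cripto) was lower, from 850 to 418 FPKM.

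Genes of glucose uptake and glycolysis were among the lower genes. Of 21 glycolysis genes, 0 were higher and 6 lower, 19 were below 0, and the median was -0.63, against -0.29 in p53-/- cells. The median level of the list was 234 FPKM, and the most abundant bin of measured genes had a median change of -0.28. Slc2a3, the glucose transporter GLUT3 (mm9 chr6:122677827-122692763), was at 352 FPKM untreated and 102 FPKM with Adriamycin. Its bounds were 348 to 355 and 100 to 104 FPKM, and its change of -1.90 compared with -0.43 in p53-/- cells, where it was at 390 and 305 FPKM. The ubiquitous transporter Slc2a1 was at 356 and 159 FPKM, with a change of -0.71 in p53-/- cells. Hk2, hexokinase 2, was at 40.8 and 12.5 FPKM. The lactate carriers Slc16a3 and Slc16a1 were at 68.8 and 26.6 FPKM and at 31.4 and 12.7 FPKM. Pfkm, the muscle phosphofructokinase, went against the list with 13.96 and 31.6 FPKM, a change of 0.98, and overlaps Senp1, which leaves its value uncertain.

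The amino acid and endoplasmic reticulum stress list had 8 of 24 genes lower and 1 higher, with a median of -0.41 against -0.09 in p53-/- cells. Atf4, the factor that drives amino acid response genes, was at 114 and 50.5 FPKM. Its target Asns, asparagine synthetase, was at 213 and 88.0 FPKM, a change of -1.39, and the arginine transporter Slc7a3 at 66.5 and 15.4 FPKM, a change of -2.14. Atf4 changed by -0.67 and Asns by -0.28 in p53-/- cells. The chaperone Hsp90b1 was at 222 and 111 FPKM and the unfolded protein factor Xbp1 at 41.8 and 19.7 FPKM. Atf3 was the higher member, at 1.10 and 4.15 FPKM.

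Lipid and nucleotide synthesis lists had negative medians too. Of 26 cholesterol and fatty acid genes, 4 were lower and 24 below 0, with a median of -0.54, or -0.35 with 5 FPKM added. The desaturases Scd1 and Scd2 were at 17.5 and 5.99 FPKM and at 80.5 and 34.4 FPKM, and farnesyl diphosphate synthase Fdps at 161 and 74.2 FPKM. Of 27 nucleotide, one-carbon and polyamine genes, 3 were lower and 1 higher, with a median of -0.61, or -0.33 with quantile scaling. The higher one was Cad, the enzyme that opens pyrimidine synthesis, at 22.9 and 63.2 FPKM, a change of 1.29 against -0.23 in p53-/- cells. Dhodh, a later enzyme of the same route, changed by -0.91.

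Nucleolar genes of ribosome production included lower members and ribosomal protein genes did not. Of 39 nucleolar genes, 6 were lower and 0 higher, and 35 were below 0, with a median of -0.56 against -0.15 in p53-/- cells. Ncl, nucleolin, was at 334 and 169 FPKM, a change of -1.10 against -0.06. The box C/D protein Nop58 was at 206 and 96.8 FPKM and Ubtf, which activates RNA polymerase I, at 53.3 and 23.5 FPKM. Of 65 cytosolic ribosomal protein genes, 0 reached 1 in either direction; their median of -0.06 became 0.07 on deposited values and 0.06 with quantile scaling. Myc, which drives both groups, was at 17.2 and 13.1 FPKM, a change of -0.48, and Mycn at 28.6 and 11.3 FPKM, a change of -1.36.

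Proteasome and heat shock genes had negative medians. Of 31 proteasome genes, 0 reached 1, yet 30 were below 0 and the median was -0.51, against -0.04 in p53-/- cells and -0.15 with quantile scaling. The median level of the list was 155 FPKM, and the most abundant bin of measured genes had a median change of -0.28. Of 16 heat shock genes, 4 were lower and 1 higher, with a median of -0.66, or -0.42 with quantile scaling. The constitutive Hspa8 (Hsc70), the most abundant of the lower genes named here, was at 1684 and 908 FPKM, a change of -1.02 against -0.53 in p53-/- cells. Its p53+/+ change fell short of 1 on deposited FPKM, at -0.89, and with quantile scaling, at -0.68. The inducible Hspa1a was the higher one, at 0.963 and 4.62 FPKM. RNA-binding protein lists lay in the same range, with median changes of -0.56 for 29 hnRNP genes and -0.57 for 28 SR and splicing regulators. Their median levels were 150 and 44.0 FPKM, so the -0.28 of the most abundant bin is the base for them too. With quantile scaling the hnRNP median was -0.27. In the hnRNP L antibody pair the SR median was -0.11.

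Some chromatin genes were lower. Of 15 DNA methylation genes, 5 were lower and 0 higher. Dnmt3a, a de novo methyltransferase, was at 10.1 and 3.91 FPKM, and Dnmt3l, its cofactor in germ and stem cells, at 374 and 148 FPKM. Dnmt3l overlaps Aire and is uncertain to that extent. The maintenance enzyme Dnmt1 was at 27.9 and 39.6 FPKM, a change of 0.36, while the demethylation enzyme Tet2 was at 8.22 and 3.19 FPKM. Of 25 Polycomb genes, 5 were lower and 2 higher, against 3.96% and 8.48% of all measured genes. Ezh2, the histone H3 lysine 27 methyltransferase (mm9 chr6:47480273-47545029), was at 60.5 and 26.9 FPKM, a change of -1.25 against -0.06 in p53-/- cells. Its partner Jarid2 was at 72.5 and 33.7 FPKM. The higher members belonged to PRC1, with Phc2 at 11.2 and 30.5 FPKM and Pcgf3 at 5.16 and 13.6 FPKM. Trim28, the corepressor of retroelements, was at 610 and 256 FPKM, and the histone chaperone Anp32b at 469 and 176 FPKM. Anp32b had changes of -1.53 in p53+/+ cells and 0.10 in p53-/- cells, where it was at 319 and 361 FPKM.

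**Figure D3:**
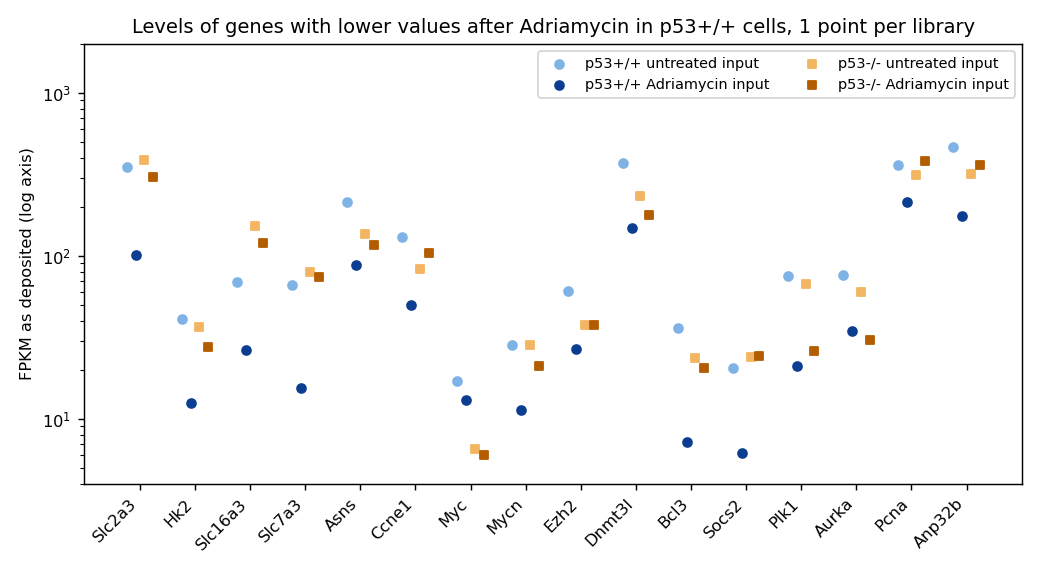
FPKM on a log axis of 16 genes, chosen after their values were seen, in the p53+/+ and p53-/- input libraries without and with Adriamycin, 1 point per library. Slc2a3, Ezh2 and Anp32b lie lower with Adriamycin in p53+/+ cells, while Anp32b was at 319 and 361 FPKM in p53-/- cells; Plk1 and Aurka lie lower in both genotypes.

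Part of the LIF pathway was lower. Of 20 LIF and STAT3 genes, 7 were lower and 1 higher, with a median of -0.49 against -0.13 in p53-/- cells. That median lay between -0.86 and -0.29 over the alternatives. Bcl3, a nuclear IkB protein, was at 36.1 and 7.17 FPKM, with changes of -2.25 in p53+/+ and -0.25 in p53-/- cells. Socs2, a feedback inhibitor, was at 20.5 and 6.13 FPKM, the kinase Pim1 at 38.4 and 13.4 FPKM, and the homeobox gene Gbx2 at 19.6 and 4.76 FPKM. Tfcp2l1, a STAT3 target in stem cells, was at 24.3 and 10.4 FPKM. Stat3 itself was at 13.8 and 12.9 FPKM, a change of -0.20. The higher gene was Lif, the ligand, at 0.439 and 3.41 FPKM. Of 26 FGF and ERK genes, 4 were lower and 3 higher, against 3.96% and 8.48% of all measured genes. The receptor Fgfr4 went from 1.73 to 12.5 FPKM and the ligand Fgf15 from 18.3 to 5.44 FPKM.

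All 32 pluripotency genes were below 0 and 16 were lower by 1. In p53-/- cells 30 of them were below 0 and 1 was lower by 1, Zfp42 (Rex1). It was at 378 and 127 FPKM in p53+/+ cells, with a change of -1.69 and of -1.04 in p53-/- cells. Prdm14, a repressor of differentiation, was at 12.9 and 2.34 FPKM and Foxd3 at 10.7 and 1.96 FPKM. Utf1, a chromatin protein of stem cells, was at 524 and 252 FPKM. Among genes for secreted products, the hormone precursor Trh was at 265 and 69.5 FPKM, osteopontin Spp1 at 239 and 63.7 FPKM, and the insulin-like growth factor binding protein Igfbp2 at 630 and 271 FPKM. Their changes in p53-/- cells were -0.17, -0.02 and -0.13. Trh and Spp1 were named by a rule that required a p53-/- change under 0.5, so their values there were limited by that choice.

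Mitosis genes had negative medians in both genotypes. Of 40 mitosis genes, 8 were lower and 2 higher, with 36 below 0. The median was -0.74 in p53+/+ cells and -0.57 in p53-/- cells, where all 40 were below 0 and 3 were lower by 1. The kinase Plk1 was at 75.7 and 21.0 FPKM, with changes of -1.91 and -1.39, and Aurka at 76.5 and 34.6 FPKM, with changes of -1.24 and -1.03. Cdc20, the activator of the anaphase ligase, changed by -0.52 in p53+/+ cells and by -0.95 in p53-/- cells. Cdk1, by contrast, was at 91.04 and 49.3 FPKM, with changes of -0.99 and -0.36. The pair that were higher in p53+/+ cells had negative changes in p53-/- cells, -0.68 for Psrc1 and -0.67 for Fam83d. Psrc1, a spindle protein, went from 78.9 to 226 FPKM in p53+/+ cells and from 10.8 to 6.50 FPKM in p53-/- cells. Fam83d, which brings casein kinase 1 to the spindle, went from 18.8 to 55.3 FPKM and from 11.99 to 7.38 FPKM. Outside that list, Gtse1, a G2 and S phase protein that restrains p53 in human cells, went from 58.9 to 135 FPKM and from 28.0 to 19.9 FPKM. Ckap2 went from 35.8 to 109 FPKM in p53+/+ cells and changed by -0.39 in p53-/- cells. Gtse1 and Ckap2 are both among the genes with a p53 element in their promoter window.

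**Figure D4:**
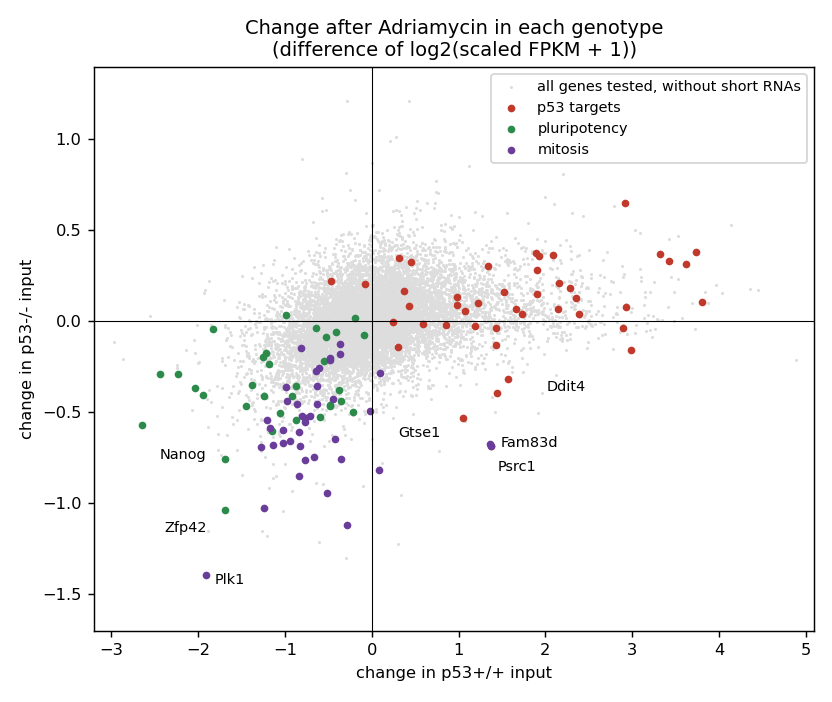
Change in log2(scaled FPKM + 1) with Adriamycin in p53+/+ cells (x axis) and p53-/- cells (y axis). Measured genes other than short RNAs are grey, p53 targets red, pluripotency genes green and mitosis genes purple. Points beyond the axes are not visible, such as Amd1 at -1.79 and 2.74. The p53 targets lie to the right near 0 on the y axis, with medians of 1.55 and 0.10, and the mitosis genes lie below 0 on both axes, except Psrc1 and Fam83d among the labelled ones.

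The promoter windows of mitosis genes often held TTTGAA, the cell cycle homology region, read on both strands. It was in 71.1% of their windows (27 of 38), against 17.9% of all windows, 11.9% of windows of measured genes and 14.7% of windows of lower genes. A pair of examples is shown with the motif in capitals on the strand of the gene, since both genes had negative changes in each genotype. For Ube2c, the ubiquitin-conjugating enzyme of the anaphase ligase, changes were -0.43 and -0.65, and the window part is chr2:164769880-164769925, plus strand.
Ube2c: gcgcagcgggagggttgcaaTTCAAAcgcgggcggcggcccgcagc
For Cdc20 it is chr4:118437336-118437381, minus strand.
Cdc20: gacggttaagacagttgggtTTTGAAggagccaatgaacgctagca
The p53 element was in 5.26% of mitosis windows (2 of 38).

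Genes of DNA replication stood near 0 in p53-/- cells. Of 50 measured, 1 was lower and 0 higher, with a median of -0.26 in p53+/+ cells, between -0.27 and -0.14 over the alternatives, and 0.02 in p53-/- cells. The lower gene was Ccne1, cyclin E1, which starts S phase, at 131 and 49.8 FPKM. It was at 83.7 and 105 FPKM in p53-/- cells, so the changes were -1.50 and 0.25, and the change in the hnRNP L antibody pair was -1.79. Pcna, the sliding clamp, was at 363 and 215 FPKM, with changes of -0.88 and 0.22. The factor E2f1, in contrast, was at 26.4 and 41.9 FPKM, with changes of 0.52 and 0.39.

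At the level of single transcript records, 13515 had a mean of at least 1 scaled FPKM over the 8 libraries. Of these, 1123 were higher by 1 or more with bounds that did not overlap, 8.31%, and 650 were lower, 4.81%; in p53-/- cells the counts were 57, 0.422%, and 85, 0.629%. Requiring separated bounds removed few records, since 1130, 8.36%, and 660, 4.88%, passed on size alone. Bounds separated at any size for 4144 higher records, 30.7%, and 5328 lower records, 39.4%, and in p53-/- cells for 1923, 14.2%, and 2724, 20.2%. Records of 1 gene sometimes moved in opposite directions with separated bounds: 200 of 2637 genes in p53+/+ cells, 7.58%, and 273 in p53-/- cells, 10.4%. Among the 123 of these genes whose records reached 2 FPKM in either library, the 10 with the largest split differed by at most 72 bases in record length, and 3 of them were also split in p53-/- cells. Of these 10, the Mia2 records start 1707 bases apart and the Fbxw2 records end 3054 bases apart. Otud4 was not counted as split in p53-/- cells, where its bounds with Adriamycin were 0 and 0. For Usp19, a deubiquitinase, NM_001168372 was at 0.0248 and 15.9 FPKM and NM_145407 at 4.66 and 0.0836 FPKM. In p53-/- cells the first went the other way, from 3.66 to 0.958 FPKM. The 2 records of Ubr2 are equal in length, 7649 bases. Splits among such near-identical records are therefore given as counts. A rule added after the data were seen took genes in which a record's share of the gene shifted by at least 20 percentage points in the same direction in input and antibody RNA and by under 10 points in p53-/- cells, with at least 3 FPKM. Without the other conditions, a shift of at least 20 points was found in 152 of 1786 genes in p53+/+ inputs. In p53-/- inputs 132 genes had such a shift, so shifts of this size were not particular to p53+/+ cells. The full rule found 27 genes, 11 of them with records that start or end at least 1000 bases apart: Arrdc4, Cd151, Cdyl, Dmtn, Fam178b, Kmt5b, Phax, Pnkd, Tacc2, Tfeb and Tmem248. Trp73 and Sptbn4 are described with them because their promoter sequences are printed above. The limit of 10 points in p53-/- cells applied only to the record that met the rule. In Fam178b other records shifted there, NM_001126046 by -24.1 points and NM_027957 by 25.7 points.

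The gain of Trp73 lay in a record from its downstream start. That promoter is known to give the form of p73 that lacks the transactivation domain. The record NM_001126330, whose 5′ end is 153471282 on mm9 chr4 against 153514317 for the full-length record, went from 0.652 FPKM with bounds of 0.522 to 0.782 to 22.3 FPKM with bounds of 21.1 to 23.5. It held 98.0% of the FPKM of the gene with Adriamycin, when the long record NM_011642 stood at 0.101 FPKM. The hnRNP L antibody pair gave 0.709 and 19.6 FPKM for the short record. The p53 element printed above lies at the downstream start of Trp73 in the other build.

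Tacc2, a centrosome protein, and Cdyl, a chromodomain corepressor, shifted between starts. For Tacc2, NM_021314, which starts inside the gene, went from 2.29 to 17.96 FPKM and from 20.4% to 60.3% of the gene, and from 34.4% to 64.2% in antibody RNA. Its share in p53-/- cells was 18.1% and 12.3%. The record NM_206856, from the upstream start, was at 8.89 and 11.8 FPKM. For Cdyl, NM_001123386 went from 0.000254 FPKM, with an upper bound of 0.0171, to 5.52 FPKM with bounds of 4.92 to 6.12. The other main record, NM_009881, was at 8.54 and 5.85 FPKM. At the gene level Cdyl changed by only 0.25, so the shift is not visible in the sum. In p53-/- cells the share of NM_001123386 was 9.46% and 4.59%.

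Pnkd, a glyoxalase-like protein, kept its main record level, NM_025580 at 64.9 and 63.3 FPKM, while NM_019999 went from 7.49 to 37.8 FPKM. That record held 10.03% and 36.1% of the gene, against 1.94% and 2.17% in p53-/- cells, but the gene overlaps Tmbim1 and its split is uncertain. Arrdc4, an arrestin-like protein, was at 23.7 and 24.3 FPKM as a gene. Its long record NM_001042592, of 3903 bases, went from 6.44 to 14.8 FPKM, and its short record NM_025549, of 1097 bases, from 17.3 to 9.49 FPKM. Tfeb, a master factor of lysosome genes, was lower as a gene, from 15.4 to 4.93 FPKM, and its record NM_011549 went from 37.5% to 9.49% of it. Sptbn4 went from 3.97 to 18.03 FPKM as a gene and from 1.98 to 2.32 FPKM in p53-/- cells. Its gain lay in NM_001199236, from 0.0159 to 17.4 FPKM, while NM_001199234, which starts 355 bases away, went from 3.37 to 0.00434 FPKM. In antibody RNA NM_001199236 was at 2.32 and 5.56 FPKM and NM_001199234 at 0.00521 and 1.61 FPKM, so the division between them was not the same. A pair of Sptbn4 promoter windows is also 355 bases apart, and by that spacing the printed p53 element lies in the window of NM_001199234, the record with less FPKM after Adriamycin. The long record NM_032610 was at 0.585 and 0.619 FPKM.

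**Figure D5:**
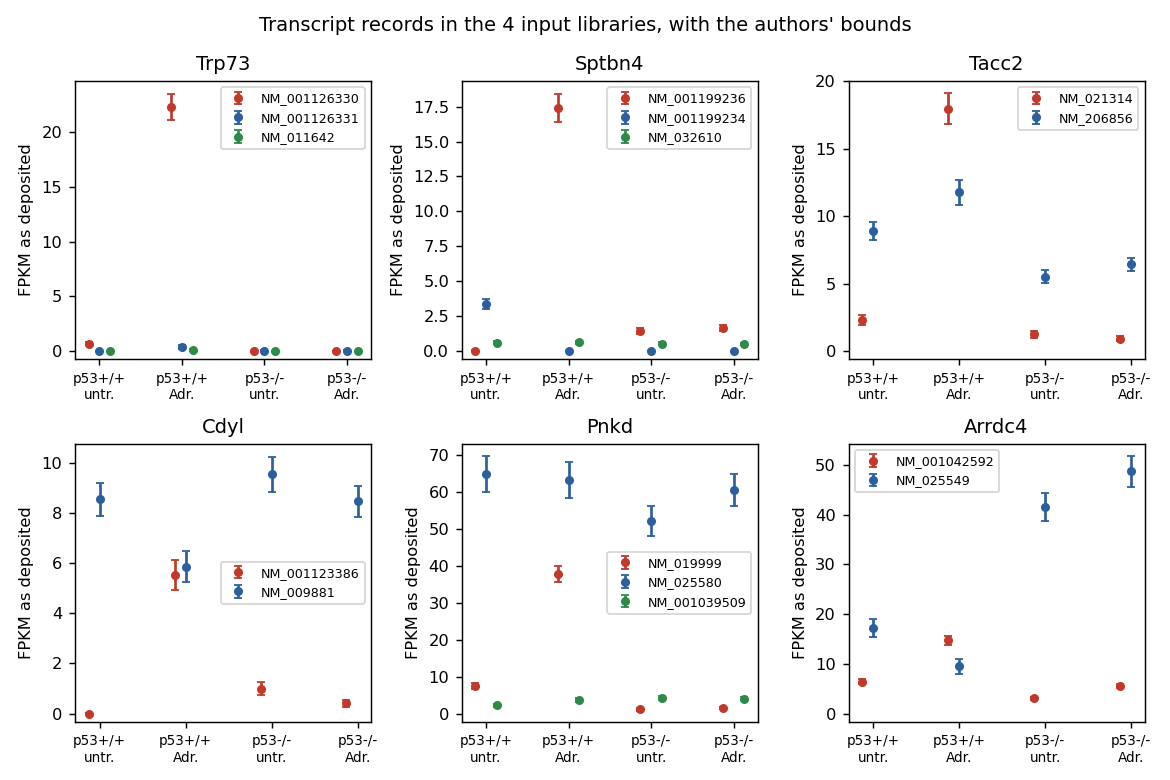
FPKM with the authors' lower and upper bounds for records of Trp73, Sptbn4, Tacc2, Cdyl, Pnkd and Arrdc4 in the 4 input libraries. NM_001126330 of Trp73 lies at 0.652 and 22.3 FPKM in p53+/+ cells, and NM_021314 of Tacc2 at 2.29 and 17.96 FPKM.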

How the data were processed

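Polyadenylated input RNA of p53+/+ embryonic stem cells, untreated or treated with Adriamycin, was compared, 1 library each. The submitters' processing notes name Cufflinks, TopHat, TopHat2 2.0.8, CASAVA 1.8.2 and the build mm9. The sources used here give neither their options nor strand settings. The authors deposited FPKM with lower and upper bounds and a coverage signal for 30769 RefSeq records per library. Symbols came from RefSeq GRCm38.p6 and matched 98.2% of records. FPKM were summed per gene and divided by the median ratio to the geometric mean of all 8 libraries over genes above 0 in all of them with a mean of at least 1 FPKM. Change is the difference of log2(scaled FPKM + 1), and genes with a mean of at least 1 scaled FPKM over the 8 libraries were kept. Transcript bounds were called separated when the scaled intervals did not overlap. With 1 library per group no test was possible, and bounds cover estimation within a library only. Calculations, tested on simulated data, used Python 3.11.15, pandas 2.3.3 and numpy 2.4.6, with figures from matplotlib 3.10.9. Genes and lists were chosen with earlier results of these data known. Named genes were those with the largest change also seen in the antibody pair and under 0.5 in p53-/- cells, the largest FPKM differences, the extremes of each list, split records, and genes crossing 1 and 5 FPKM. Some listed genes are not reported here. A few others, and the share-shift rule, were chosen after values were seen. Alternatives covered scaling, the added constant, the filter, failed estimates, the record used and short RNAs.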

Additional observations from a re-analysis of the deposited data

Results flagged for a closer look

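Genes that changed by 1 or more in p53+/+ cells and by 0.5 or more the other way in p53-/- cells included 5 of those named by the rules, each with 1 library per corner, and the difference was not tested for any of them. Short RNAs and genes without a symbol aside, the only other such gene was Kifc5b, a kinesin named after its values were seen. It changed by 1.07 and -0.55. Psrc1 changed by 1.37 and -0.68, Fam83d by 1.37 and -0.67, and Gtse1 by 1.05 and -0.53, all with roles in mitosis or G2. Ddit4 changed by 1.92 and -0.50. Amd1, which encodes a polyamine enzyme, changed by -1.79 and 2.74, at 3.30 and 0.0141 FPKM in p53+/+ cells and 0.0126 and 8.02 FPKM in p53-/- cells. Amd1 overlaps Amd2 in the deposited annotation, so its value is uncertain.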

How the results depend on the processing

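No paired analysis was possible because each group is 1 library and the labels give no replicate numbers; for the same reason no replicate could be left out. Adding 5 FPKM gave 415 higher and 203 lower genes, and 431 higher and 222 lower records. Adding 0.1 FPKM gave 794 lower genes, 1714 higher records and 1162 lower records. Keeping means of at least 5 FPKM gave 509 higher genes, 511 higher records and 42 genes with opposite records, and no filter gave 530 such genes. The added rule on shares, with records that start or end elsewhere, gave 11. Under the other alternatives these counts stayed within 1.5 times the reported ones, and no value of a named gene past 1 changed sign. Some named genes past 1 fell short of it in an alternative, such as Hspa8 at -0.68 with quantile scaling. Quantile scaling was not run for records, nor the setting without short RNAs for records and lists. List medians moved by under 0.25 in 452 of the recomputed values and by 0.25 or more in 34. The 12 pathway lists with a median of -0.5 or below kept a negative median under every alternative computed for them, with -0.15 the highest. The added constant limits what can be said of genes near 1 FPKM, and no spread between cultures is known.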

Other observations

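The counts here are to be read beside the 8.48% higher and 3.96% lower of all measured genes. Imprinted genes, known for expression from 1 parental allele, moved both ways: of 18 measured, 2 were higher and 4 lower. Peg10 was at 37.5 and 10.03 FPKM and Phlda2 at 99.0 and 35.9 FPKM, while the transporter Slc22a18 went from 2.61 to 13.1 FPKM and holds a p53 element in its promoter window. Of 13 telomere genes, 1 was higher and 1 lower. Wrap53, which guides telomerase RNA and whose gene neighbours Trp53, went from 16.1 to 52.3 FPKM, and the shelterin subunit Terf1 was at 119 and 53.4 FPKM. Of 24 elongation and Mediator genes, Ell3, an elongation factor, was the 1 that was higher, at 7.76 and 37.3 FPKM.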
